A study of Homo sapiens with 6 samples.

Results

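Semaphorins, plexins and neuropilins are the ligands, receptors and co-receptors of a guidance system that steers axons, vessels and migrating cells. The genes were chosen by symbol, as SEMA3 to SEMA7, the plexin families A to D and both neuropilins, and 31 of the 34811 genes counted were members: 20 semaphorins, 9 plexins and 2 neuropilins. Their mRNA was measured by RNA-seq in OVCAR-3 cells, an established human ovarian carcinoma line that models high-grade serous tumors. OV3/COX1KD cells carried a stable pRS shRNA HuSH-29 plasmid against COX-1, the cyclooxygenase that begins prostaglandin synthesis, and OV3/SCR cells carried the scrambled shRNA on the same plasmid. Both were puromycin-selected clones without further treatment, 3 passages of each were sequenced, and each condition was a single clone, so effects of the shRNA and of the clone cannot be told apart. The p-values therefore measure the spread between passages of those clones.

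Semaphorins bind plexins through a shared sema domain, and an engaged plexin acts on small GTPases inside the cell to loosen adhesion and remodel the cytoskeleton. Class 3 semaphorins are secreted and mostly need a neuropilin beside the plexin, whereas classes 4, 5 and 6 span the membrane and class 7 is held by a lipid anchor. Neuropilins also bind members of the VEGF family. In carcinomas, individual semaphorins have been described both as brakes on and as promoters of invasion and vessel growth.

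Between 25291505 and 27391538 reads were counted on genes per library, and a floor of 3 counts corresponded to 0.113 to 0.120 CPM (the read count relative to the library size, as scaled by TMM), which covers counting error only. PTGS1, the gene for COX-1, stood at 25.6 ± 1.02 CPM (SD, n = 3) in OV3/SCR and 18.8 ± 0.639 in OV3/COX1KD cells, or -0.45 as log2 fold change (SE 0.057, edgeR FDR = 1.3e-06). Of 13 markers of Müllerian epithelial carcinoma, 12 were tested and all 12 differed at an edgeR FDR under 0.01, 10 higher and 2 (PAX8 and KRT7) lower in OV3/COX1KD, against 47.9% of all tested genes with a call, 25.8% higher and 22.1% lower, while ESR1 had at most 2 counts in any library. The summed level of that list was 5824 to 5895 CPM in OV3/SCR libraries and 7594 to 7792 CPM in OV3/COX1KD libraries. The 7 fibroblast markers summed to 10.95 to 11.7 CPM in OV3/SCR and 6.72 to 7.47 CPM in OV3/COX1KD. COL1A1 carried most of that sum and was lower, at 10.1 ± 0.232 CPM in OV3/SCR and 5.93 ± 0.517 CPM in OV3/COX1KD (SD, n = 3, log2 fold change -0.77), with COL3A1 and LUM at 0 in every OV3/SCR library and at no more than 4 counts in any OV3/COX1KD library. The 5 endothelial markers in the table summed to 14.3 to 17.0 CPM over all libraries, mostly ERG, with CDH5 at no more than 3 counts and TEK called higher (log2 fold change 0.98). The 6 leukocyte markers summed to 0.976 to 2.03 CPM. The part of these shifts in the results below was not tested, and in bulk RNA fewer expressing cells cannot be told apart from less RNA per cell.

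Before the levels, the DNA just upstream of a RefSeq start site is shown for 4 members. The members are examples of a co-receptor, a receptor and a pair of ligands that differed between the conditions. NRP2 and SEMA3D were lower in OV3/COX1KD, and SEMA6D and PLXND1 were higher. They were chosen with these differences known, and members with larger differences than PLXND1, such as SEMA7A and SEMA3B, are not shown. Each window is the 250 bases before the RefSeq start site of the gene, taken from the GRCh38.p14 table and matched exactly to a single place on that chromosome of GRCh37, the build of hg19. Windows are written 5′ to 3′ along the gene, and capitals mark the GC box, GGGCGG or its reverse complement CCGCCC, overlapping copies included. NRP2 lies on the plus strand (chr2:206546975-206547224) and SEMA3D on the minus strand (chr7:84816373-84816622). SEMA6D lies on the plus strand (chr15:47476036-47476285) and PLXND1 on the minus strand (chr3:129325520-129325769). The GENCODE annotation starts NRP2 earlier, at 206546714, so the NRP2 window lies inside the annotated gene. The windows of SEMA3D, SEMA6D and PLXND1 lie outside their annotated genes.
NRP2: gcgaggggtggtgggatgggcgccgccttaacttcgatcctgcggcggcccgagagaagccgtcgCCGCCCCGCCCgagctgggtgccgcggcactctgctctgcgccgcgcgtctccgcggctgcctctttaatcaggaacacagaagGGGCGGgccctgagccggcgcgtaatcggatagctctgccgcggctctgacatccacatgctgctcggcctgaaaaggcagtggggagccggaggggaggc
SEMA3D: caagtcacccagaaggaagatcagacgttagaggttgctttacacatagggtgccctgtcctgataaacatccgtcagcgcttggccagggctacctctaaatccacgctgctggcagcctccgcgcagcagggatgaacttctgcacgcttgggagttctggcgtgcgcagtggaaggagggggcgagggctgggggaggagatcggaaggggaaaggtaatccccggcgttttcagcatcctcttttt
SEMA6D: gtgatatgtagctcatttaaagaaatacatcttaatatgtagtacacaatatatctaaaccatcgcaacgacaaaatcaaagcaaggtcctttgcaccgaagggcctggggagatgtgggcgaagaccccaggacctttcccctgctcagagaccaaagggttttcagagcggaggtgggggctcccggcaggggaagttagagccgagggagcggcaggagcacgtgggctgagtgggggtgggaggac
PLXND1: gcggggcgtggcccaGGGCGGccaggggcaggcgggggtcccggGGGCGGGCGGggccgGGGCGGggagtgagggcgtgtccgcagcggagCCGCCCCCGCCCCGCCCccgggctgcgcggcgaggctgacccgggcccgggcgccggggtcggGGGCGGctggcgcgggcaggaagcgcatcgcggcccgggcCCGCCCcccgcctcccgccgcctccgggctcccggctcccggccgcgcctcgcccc
The GC content of the windows was 70% for NRP2, 57.6% for SEMA3D, 53.6% for SEMA6D and 88.8% for PLXND1, against a median of 58% over all promoters. NRP2 held 3 GC boxes and PLXND1 held 9, whereas the windows of SEMA3D and SEMA6D held none, so each pair joined a lower and a higher gene. Windows were found for 27 of the 31 members, SEMA3A, SEMA6A, SEMA6B and NRP1 having no entry. The GC box was present in 18 of the 27 member windows (66.7%) and in 42.3% of 27305 promoter windows of the same length. A TATA box (TATAAA) was present in 0 of 27 member windows and in 11.1% of all windows. The cAMP-response element TGACGTCA was found in 1 member, SEMA4C, and in 1.77% of all windows, and the E-box CAGGTG in 5 members (18.5%) and in 17.5% of all windows. Both strands were searched for each motif. These letters are a description of the sequence and do not show that a factor was bound.

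The comparison of OV3/COX1KD with OV3/SCR asked how the guidance genes differ between cells with the COX-1 shRNA and cells with the scrambled shRNA, PTGS1 mRNA in the former being at 73.3% of the control level. SEMA6D, a membrane semaphorin, rose most and NRP2, the neuropilin that receives SEMA3F and VEGFC, fell most. Among class 3 ligands SEMA3C and SEMA3F rose and SEMA3B and SEMA3D fell. Among the plexins PLXND1 and, by less, PLXNB1 rose, PLXNA2 and PLXNA3 fell, and the abundant PLXNB2 and PLXNA1 had no call. The edgeR quasi-likelihood test was run on the 17309 genes that passed the filter on low counts, with p-values adjusted over all of them by Benjamini-Hochberg (FDR). Under it 27 of the 31 members were tested, 11 were higher and 8 were lower in OV3/COX1KD at an FDR under 0.01, 8 had no call and 4 were too scarce to test. Over all tested genes 47.9% had a call, 25.8% higher and 22.1% lower. Among genes whose mean log2 CPM reached 1 the share was 57.7%, and 18 of the 26 members above that abundance (69.2%) had a call. The median size of the log2 fold change, without its sign, was 0.39 over the 27 tested members and 0.28 over all tested genes. When a fold change above 2.5 was required as well, 3 members (SEMA6D, NRP2 and SEMA7A) passed, against 3.92% of all tested genes, 1 higher against 1.58% and 2 lower against 2.34%. A log2 fold change beyond 0.5 with a call was seen in 6 higher and 5 lower members and in 19.9% of all tested genes. In TMM-scaled CPM the groups did not overlap in 20 members, 12 above and 8 below, nor in 63.2% of all tested genes, 32.5% above and 30.7% below. With libraries scaled by total counts alone, 41.0% of all calls were higher instead of 53.9%, and the members gave 9 higher and 8 lower.

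**Figure D1:**
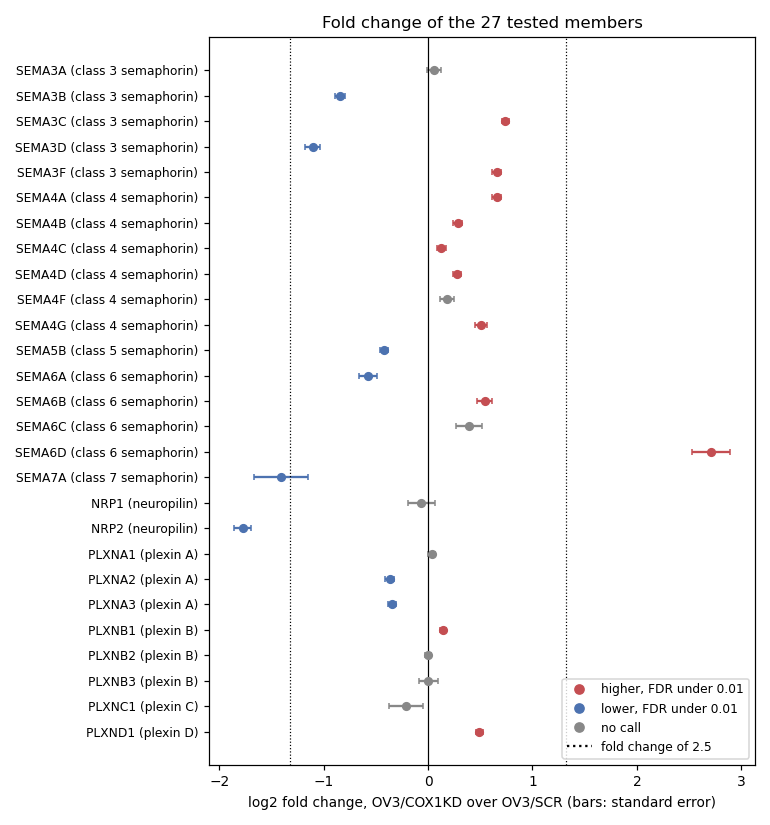
Log2 fold change of each tested member, OV3/COX1KD over OV3/SCR, with its standard error, ordered by class, coloured by the edgeR call at an FDR under 0.01, with dotted lines at a fold change of 2.5. SEMA6D at 2.71 lies far to the right, NRP2 at -1.78 and SEMA7A at -1.41 lie to the left of the dotted line, and class 4 lies to the right of 0.

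SEMA3B (ENSG00000012171, chromosome 3 from 50304990 to 50314977 in GRCh37) encodes a secreted semaphorin known as a tumor suppressor candidate of the short arm of chromosome 3. Its read counts were 913, 887 and 912 in OV3/SCR and 485, 485 and 510 in OV3/COX1KD replicates 1 to 3. All OV3/COX1KD libraries lay below all OV3/SCR libraries. The level was 34.5 ± 0.664 CPM (SD, n = 3) in OV3/SCR and 19.3 ± 0.107 CPM (SD, n = 3) in OV3/COX1KD, a log2 fold change of -0.84 (SE 0.051, edgeR FDR = 2.8e-11). SEMA3F (ENSG00000001617, from 50192478 to 50226508), whose product repels cells through NRP2, lies 78.5 kb from SEMA3B on the same strand and moved the other way. Its counts were 986, 989 and 954 in OV3/SCR and 1546, 1445 and 1535 in OV3/COX1KD, without overlap of the groups. The level of SEMA3F went from 37.3 ± 0.583 to 58.9 ± 2.19 CPM (SD, n = 3 each), a log2 fold change of 0.66 (SE 0.043, edgeR FDR = 9.6e-11). The antisense gene SEMA3F-AS1, whose exons cover 2.28% of those of SEMA3F, was lower, at 2.95 ± 0.0920 CPM in OV3/SCR and 1.503 ± 0.408 CPM in OV3/COX1KD (SD, n = 3). Reads of SEMA3F per read of SEMA3B numbered 1.08 ± 0.0345 in OV3/SCR and 3.06 ± 0.112 in OV3/COX1KD (SD, n = 3). Neighbours were taken as the other tested genes whose lower coordinate lay within 1 Mb of that of the member. The 48 neighbours of SEMA3F had a median log2 fold change of -0.12, with 8 called higher and 16 lower, and 4 rose at least as much as SEMA3F. The 45 neighbours of SEMA3B had a median of -0.10, with 8 called higher and 14 lower, and 3 fell at least as much as SEMA3B.

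SEMA3C and SEMA3D, secreted ligands whose genes lie on chromosome 7, also moved in opposite directions. SEMA3C (ENSG00000075223, from 80371854 to 80551675), which can signal through either neuropilin together with PLXND1, had 1382, 1357 and 1350 counts in OV3/SCR against 2185, 2136 and 2370 in OV3/COX1KD. The lowest OV3/COX1KD library exceeded the highest OV3/SCR library. The level rose from 52.0 ± 0.191 to 87.0 ± 1.87 CPM (SD, n = 3 each), a log2 fold change of 0.74 (SE 0.037, edgeR FDR = 1.3e-12). SEMA3D (ENSG00000153993, from 84624869 to 84816372) had 404, 402 and 398 counts in OV3/SCR and 187, 180 and 180 in OV3/COX1KD. The groups were far apart and tight, at 15.3 ± 0.149 and 7.12 ± 0.341 CPM (SD, n = 3 each), a log2 fold change of -1.11 (SE 0.076, edgeR FDR = 2.0e-10). SEMA3C read counts were 3.40 ± 0.0229 times those of SEMA3D in OV3/SCR and 12.2 ± 0.808 times in OV3/COX1KD (SD, n = 3). By the same measure of lower coordinates SEMA3D had no neighbour and SEMA3C had 2, with a median log2 fold change of 0.23.

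SEMA3A, the founding repellent of the class that acts through NRP1, lies between SEMA3C and SEMA3D and showed no call. It is 502.8 kb from SEMA3D at their nearest ends, but their lower coordinates are more than 1 Mb apart, so it was not counted as a neighbour. Its counts of 601, 536 and 550 in OV3/SCR and 610, 506 and 599 in OV3/COX1KD overlapped, with a log2 fold change of 0.055 (SE 0.066, edgeR FDR = 0.492). SEMA3E, which binds PLXND1 without a neuropilin, had 4, 4 and 5 counts in OV3/SCR and 4, 0 and 1 in OV3/COX1KD, and SEMA3G had 1, 2 and 1 against 0, 1 and 0. Neither passed the filter, and without it their edgeR FDR was 0.286 and 0.521. Differences in these genes were not detectable at this depth.

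All 6 class 4 semaphorins passed the filter, 5 of them rose and SEMA4F had no call, while none fell. Of all tested genes 25.8% were called higher and 22.1% lower, and the call of SEMA4C depended on the settings, as given below. In TMM-scaled CPM every OV3/COX1KD library exceeded every OV3/SCR library in each of the 6, a pattern that 32.5% of all tested genes showed. The raw counts of SEMA4C and SEMA4F overlapped between the groups. SEMA4A (ENSG00000196189, chromosome 1 from 156117157 to 156147543), a ligand of B plexins and PLXND1 studied in immune cells, rose most in the class. Its counts were 889, 875 and 880 in OV3/SCR and 1288, 1366 and 1423 in OV3/COX1KD, and the level went from 33.7 ± 0.352 to 53.0 ± 1.70 CPM (SD, n = 3 each), a log2 fold change of 0.66 (SE 0.044, edgeR FDR = 1.3e-10). The 63 neighbours of SEMA4A had a median log2 fold change of -0.16.

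SEMA4D (ENSG00000187764, chromosome 9 from 91975702 to 92113045), also called CD100, is the classical ligand of PLXNB1 and promotes vessel growth when it is shed from tumor cells. Its counts of 1305, 1242 and 1297 in OV3/SCR and 1485, 1508 and 1566 in OV3/COX1KD gave a log2 fold change of 0.28 (SE 0.040, edgeR FDR = 5.8e-06). SEMA4B rose by a similar amount, with a log2 fold change of 0.28 (SE 0.044, edgeR FDR = 1.9e-05). SEMA4G had 749, 776 and 770 counts in OV3/SCR and 974, 1135 and 1082 in OV3/COX1KD, a log2 fold change of 0.51 (SE 0.056, edgeR FDR = 2.2e-07). Exons of MRPL43 on the opposite strand cover 22.9% of the exon length of SEMA4G, and MRPL43 had a log2 fold change of -0.18 (edgeR FDR = 9.8e-05). The library kit does not mark strand, so reads in that stretch cannot be assigned to either gene. SEMA4C, a PLXNB2 ligand, had the smallest difference called in the class, with 51.3 ± 1.10 CPM in OV3/SCR and 56.2 ± 1.13 CPM in OV3/COX1KD (SD, n = 3), a log2 fold change of 0.13 (SE 0.040, edgeR FDR = 0.00920). That call was lost in 10 of 12 alternative settings. SEMA4F had 391, 339 and 344 counts in OV3/SCR and 377, 399 and 416 in OV3/COX1KD, a log2 fold change of 0.18 (SE 0.069, edgeR FDR = 0.0295).

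Class 5 semaphorins carry thrombospondin repeats beside the sema domain. SEMA5B (ENSG00000082684, chromosome 3 from 122627929 to 122747452) fell, with 1635, 1640 and 1646 counts in OV3/SCR and 1204, 1165 and 1227 in OV3/COX1KD. Its level was 62.7 ± 1.20 CPM in OV3/SCR and 46.8 ± 0.930 CPM in OV3/COX1KD (SD, n = 3), a log2 fold change of -0.42 (SE 0.040, edgeR FDR = 2.0e-08). SEMA5A, a PLXNB3 ligand, had 11, 5 and 8 counts in OV3/SCR and 1, 5 and 2 in OV3/COX1KD, too few to be tested, and an unfiltered edgeR fit gave it an FDR of 0.0483.

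Class 6 semaphorins are membrane proteins that pair with A plexins, and they moved in both directions. SEMA6D (ENSG00000137872, chromosome 15 from 47476298 to 48066425), a PLXNA1 ligand, had 16, 18 and 19 counts in OV3/SCR and 120, 116 and 105 in OV3/COX1KD. It was scarce in every OV3/SCR library and clearly counted in every OV3/COX1KD library, at 0.675 ± 0.0687 and 4.45 ± 0.443 CPM (SD, n = 3 each). The log2 fold change was 2.71 (SE 0.18, edgeR FDR = 1.8e-10), a 6.54-fold rise, and none of its 4 neighbours rose as much, their median being 0.57. SEMA6A (ENSG00000092421, chromosome 5 from 115779251 to 115910519), which binds PLXNA2, fell, with 254, 241 and 251 counts in OV3/SCR and 154, 161 and 176 in OV3/COX1KD, a log2 fold change of -0.57 (SE 0.087, edgeR FDR = 1.2e-05). SEMA6B (ENSG00000167680, chromosome 19 from 4542605 to 4581788) had 369, 425 and 412 counts against 615, 528 and 578, a log2 fold change of 0.54 (SE 0.073, edgeR FDR = 2.5e-06). The groups did not overlap in SEMA6A or SEMA6B. SEMA6C had 126, 157 and 120 counts in OV3/SCR and 143, 189 and 186 in OV3/COX1KD, overlapping groups with a log2 fold change of 0.39 (SE 0.13) and an edgeR FDR of 0.0112. Without OV3/SCR replicate 2 its FDR was 0.00429, and without OV3/COX1KD replicate 1 it was 0.00214. Leaving out any other library gave SEMA6C an edgeR FDR of 0.0207 to 0.0630, and its DESeq2 FDR was 0.0252.

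SEMA7A (ENSG00000138623, chromosome 15 from 74701630 to 74726299), the lipid-anchored semaphorin that binds PLXNC1 and β1 integrin, had 53, 58 and 47 counts in OV3/SCR and 30, 16 and 12 in OV3/COX1KD. The OV3/COX1KD libraries were all lower but spread widely, replicate 1 being the highest. The level was 2.01 ± 0.205 CPM in OV3/SCR and 0.760 ± 0.386 CPM in OV3/COX1KD (SD, n = 3), a log2 fold change of -1.41 (SE 0.26, edgeR FDR = 1.3e-04). The estimate was -1.13 without OV3/COX1KD replicate 3 and -1.30 without replicate 2, both short of a fold change of 2.5, and -1.88 without replicate 1. When edgeR's glmTreat set the null at 2.5-fold, 2 members passed an FDR of 0.01, SEMA6D and NRP2.

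**Figure D2:**
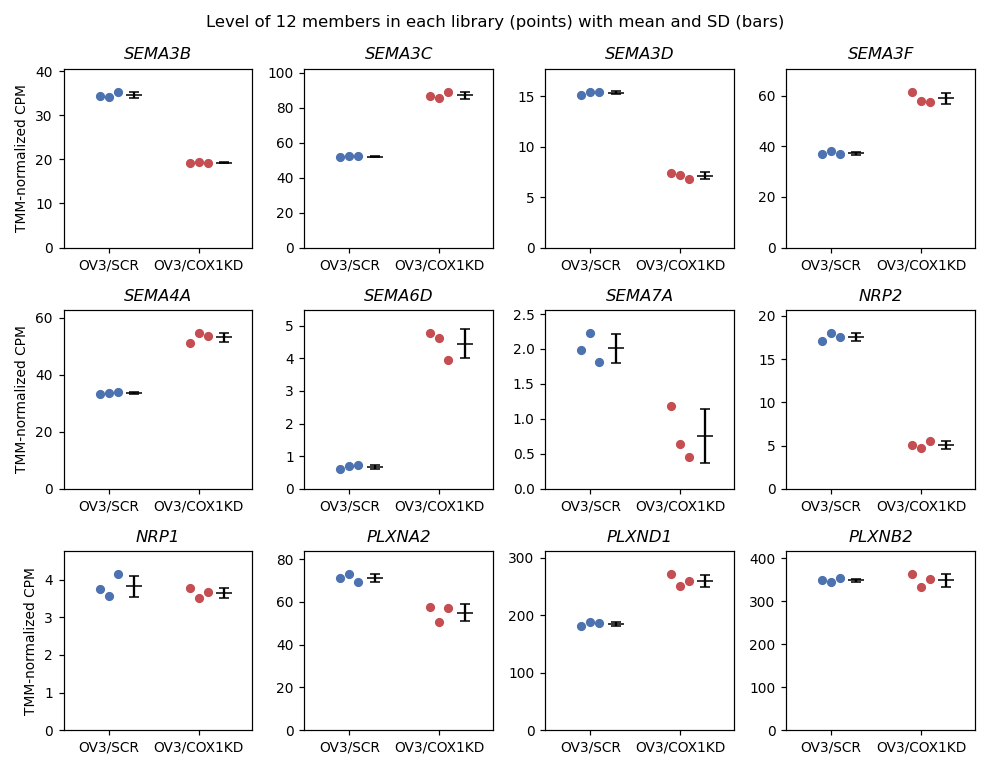
TMM-normalized CPM of 12 members in each of the 3 OV3/SCR and 3 OV3/COX1KD libraries (points, axes from 0), with the mean and SD of each group as bars. The groups are apart in all panels except NRP1 and PLXNB2, and the spread of SEMA7A in OV3/COX1KD stands out.

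The neuropilins diverged. NRP2 (ENSG00000118257, chromosome 2 from 206546714 to 206662857) had 455, 469 and 455 counts in OV3/SCR and 128, 117 and 149 in OV3/COX1KD. All OV3/COX1KD libraries lay far below the lowest OV3/SCR library. The level was 17.6 ± 0.466 CPM in OV3/SCR and 5.12 ± 0.463 CPM in OV3/COX1KD (SD, n = 3), a log2 fold change of -1.78 (SE 0.083, edgeR FDR = 5.6e-13), which left 29.2% of the control level. NRP1 (ENSG00000099250, chromosome 10 from 33466420 to 33625190), the receptor part for SEMA3A and VEGFA, had 100, 93 and 107 counts in OV3/SCR and 95, 88 and 98 in OV3/COX1KD. Those groups overlapped, with a log2 fold change of -0.063 (SE 0.13, edgeR FDR = 0.688). Each read of NRP1 was matched by 4.55, 5.04 and 4.25 reads of NRP2 in OV3/SCR replicates 1 to 3, and by 1.35, 1.33 and 1.52 in those of OV3/COX1KD. The 7 neighbours of NRP2 had a median log2 fold change of -0.0099, with 3 called higher and 1 lower.

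Plexins are the signal-bearing receptors, and of the 8 tested 2 were higher, 2 were lower and 4 had no call. Of all tested genes 47.9% had a call, 25.8% higher and 22.1% lower. PLXND1 (ENSG00000004399, chromosome 3 from 129274057 to 129325519), the receptor for SEMA3E and a partner of SEMA3C in vessels, rose most among them. Its counts were 4840, 4898 and 4807 in OV3/SCR and 6826, 6278 and 6900 in OV3/COX1KD, without overlap. The level rose from 185 ± 3.27 to 260.3 ± 10.4 CPM (SD, n = 3 each), a log2 fold change of 0.49 (SE 0.033, edgeR FDR = 1.4e-10). None of its 25 neighbours rose as much, and their median log2 fold change was 0.043.

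The A plexins serve class 3 and class 6 ligands. PLXNA2 (ENSG00000076356, chromosome 1 from 208195587 to 208417729) fell, with 1892, 1897 and 1790 counts in OV3/SCR and 1444, 1262 and 1525 in OV3/COX1KD, a log2 fold change of -0.37 (SE 0.047, edgeR FDR = 1.2e-06). PLXNA3 (ENSG00000130827, chromosome X from 153686621 to 153706118) fell to a like extent, from 2590, 2630 and 2467 counts to 1945, 2021 and 1950, a log2 fold change of -0.35 (SE 0.040, edgeR FDR = 3.3e-07). PLXNA1 (ENSG00000114554, chromosome 3 from 126701536 to 126756232) had 11670, 11548 and 11385 counts against 11894, 10592 and 12256, a log2 fold change of 0.037 (SE 0.035, edgeR FDR = 0.383). OV3/COX1KD replicate 2 was the lowest library there, and without it the log2 fold change was 0.089 with an FDR of 0.00170. PLXNA4 had 1 count in 1 OV3/COX1KD library and 0 in the other 5, which the floor of 3 counts leaves undetected.

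The B plexins serve class 4 semaphorins, and PLXNB1 was the member with the highest count. PLXNB1 (ENSG00000164050, chromosome 3 from 48445261 to 48471495) had 21392, 20914 and 20719 counts in OV3/SCR and 22569, 22797 and 22880 in OV3/COX1KD, a log2 fold change of 0.15 (SE 0.029, edgeR FDR = 1.9e-04). With total count scaling the log2 fold change was 0.069 and its FDR 0.0476. PLXNB2 (ENSG00000196576, chromosome 22 from 50713408 to 50746075) lay at 349 CPM in both groups, with SDs of 3.89 in OV3/SCR and 14.8 in OV3/COX1KD and an edgeR FDR of 0.998. PLXNB3 had 10.0 ± 1.04 CPM in OV3/SCR and 10.0 ± 0.772 CPM in OV3/COX1KD (SD, n = 3), an edgeR FDR of 0.980, and SRPK3 exons cover 20.4% of its exon length on the same strand. PLXNC1, the SEMA7A receptor, had 68, 70 and 59 counts against 57, 48 and 62, a log2 fold change of -0.21 (SE 0.16, edgeR FDR = 0.286).

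To compare levels between genes, CPM was divided by the length of all annotated exons in kb. In OV3/SCR the order was led by the plexins PLXNB1 at 82.1, PLXNB2 at 48.0, PLXNA1 at 39.2 and PLXND1 at 19.4 CPM per kb, and each of these was further from the next than the spread between libraries. On this length SEMA3C was the highest ligand at 8.53 ± 0.0313 CPM per kb in OV3/SCR and 14.3 ± 0.306 CPM per kb in OV3/COX1KD (SD, n = 3). PLXNA3, at 8.36 ± 0.240 CPM per kb in OV3/SCR, overlapped with SEMA3C over its libraries. Among ligands SEMA3C was followed in OV3/SCR by SEMA4C at 8.20 ± 0.176, SEMA3F at 7.73 ± 0.121 and SEMA5B at 7.36 ± 0.140 CPM per kb, and in OV3/COX1KD SEMA3F at 12.2 ± 0.453 CPM per kb stood next to SEMA3C. With the longest transcript as length the order of ligands in OV3/SCR changed, to SEMA4C at 13.6, SEMA5B at 12.7, and SEMA3C and SEMA4B both at 10.7 CPM per kb, while the leading 4 plexins kept their order. The neuropilins were scarce beside the leading 4 plexins, with NRP2 at 1.26 and NRP1 at 0.332 CPM per kb in OV3/SCR. In OV3/COX1KD they were at 0.368 and 0.317 CPM per kb. Other plexins were as scarce, with PLXNB3 at 1.43 and PLXNC1 at 0.250 CPM per kb in OV3/SCR. NRP2 was above NRP1 in every library of both conditions. SEMA6D was the lowest of the tested members in OV3/SCR at 0.0792 CPM per kb and reached 0.522 CPM per kb in OV3/COX1KD, above PLXNC1, SEMA7A and both neuropilins. By longest transcript it stood at 0.729 ± 0.0726 CPM per kb in OV3/COX1KD and NRP2 at 0.768 ± 0.0694 CPM per kb (SD, n = 3 each), which overlapped.

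**Figure D3:**
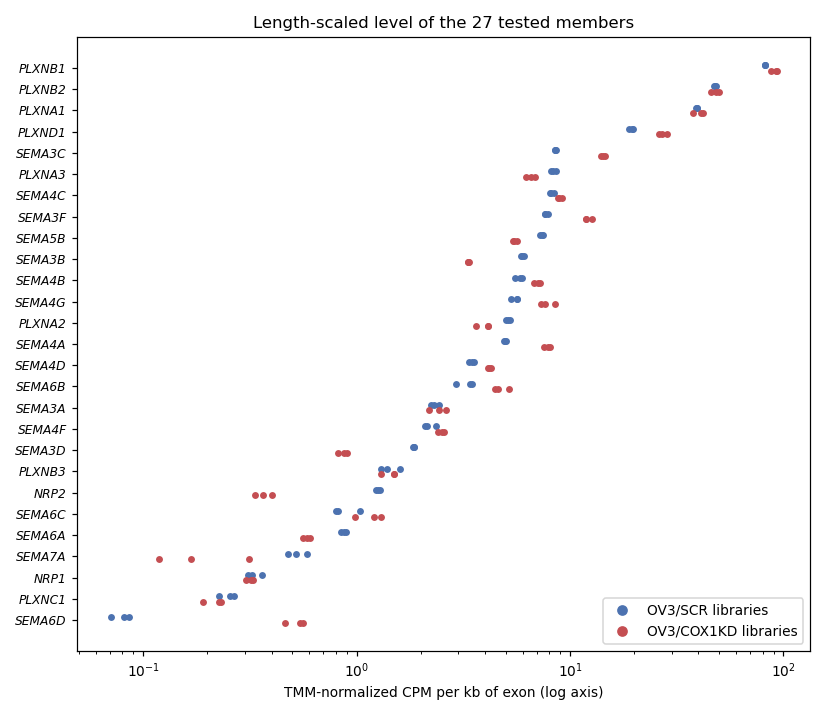
TMM-normalized CPM per kb of exon (log axis) of the 27 tested members in each library, ordered by the mean in OV3/SCR. The plexins PLXNB1, PLXNB2, PLXNA1 and PLXND1 lie above 18 in every library, and SEMA6D moves from below 0.1 to above 0.4.

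The shares of members shifted most within class 3, class 6 and the neuropilins. Smaller shifts from OV3/SCR to OV3/COX1KD were seen in class 4, with SEMA4A at 16.5% and 20.4% and SEMA4C at 27.2% and 23.4%. Among the A plexins PLXNA1 made up 74.4% and then 79.2%. The summed length-scaled level of class 3 ligands was 26.4 ± 0.0628 CPM per kb in OV3/SCR and 33.1 ± 0.751 CPM per kb in OV3/COX1KD (SD, n = 3). SEMA3C made up 32.3% of it in OV3/SCR and 43.1% in OV3/COX1KD, and SEMA3F 29.2% and 36.9%. SEMA3B made up 22.6% and then 10.1%, and SEMA3D 7.02% and then 2.61%. Class 4 summed to 30.1 ± 0.201 CPM per kb in OV3/SCR and 38.3 ± 0.819 CPM per kb in OV3/COX1KD (SD, n = 3). The sum of both neuropilins went from 1.59 ± 0.0370 to 0.685 ± 0.0411 CPM per kb (SD, n = 3 each), and the share of NRP1 in it from 20.8% to 46.3%. The A plexins summed to 52.7 ± 0.550 and 50.8 ± 2.38 CPM per kb, and the B plexins to 131.6 ± 0.545 and 140.4 ± 2.79 CPM per kb (SD, n = 3), in OV3/SCR and OV3/COX1KD respectively. These sums are descriptions and carry no test.

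**Figure D4:**
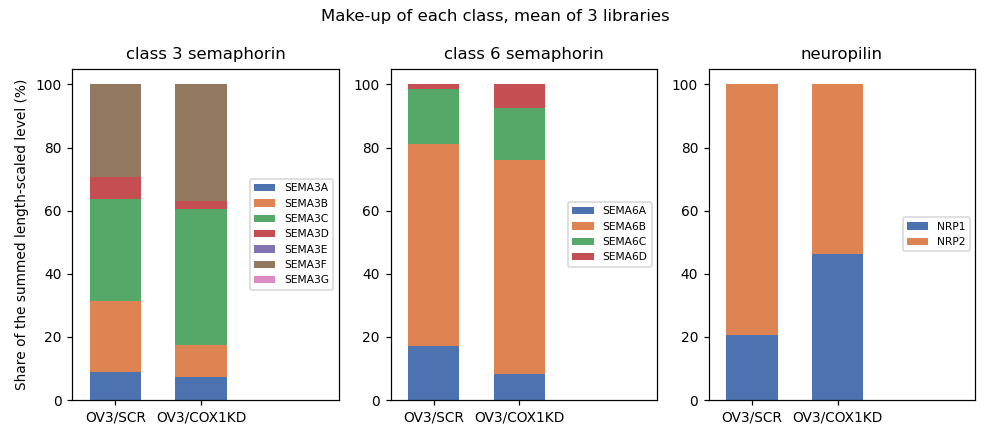
Share of each member in the summed length-scaled level of class 3 semaphorins, class 6 semaphorins and neuropilins, as the mean of 3 libraries per condition. SEMA3C and SEMA3F widen at the cost of SEMA3B and SEMA3D, SEMA6D grows from 1.55% to 7.42% of class 6, and NRP1 reaches 46.3% of the neuropilins.

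Genes that work beside these receptors were taken from a list by role. Of its 66 genes with counts, 62 were tested, and 17 were higher and 19 lower in OV3/COX1KD at an edgeR FDR under 0.01. These counts and those by role below stand against 47.9% of all tested genes with a call, 25.8% higher and 22.1% lower. The median log2 fold change was 0.057 over the list and -0.0087 over all tested genes.

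Of 14 tested co-receptors and non-plexin receptors, 4 were higher and 4 lower. NRCAM, an adhesion molecule that partners NRP2 in the SEMA3F receptor of neurons, went from 40.0 ± 0.515 CPM to 14.0 ± 0.232 CPM (SD, n = 3 each), a log2 fold change of -1.51 (SE 0.052, edgeR FDR = 6.8e-15). L1CAM, which plays that part beside NRP1, had a log2 fold change of -0.50 (SE 0.038, edgeR FDR = 9.6e-10). ITGA1, whose integrin is a SEMA7A receptor, rose by 0.47 on the log2 scale (edgeR FDR = 3.9e-04), and ERBB2, a receptor kinase that associates with PLXNB1, rose by 0.40 (edgeR FDR = 2.4e-08).

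Of 6 tested non-semaphorin neuropilin ligands, VEGFC, PDGFB and VEGFA were lower and VEGFB was higher. VEGFC, the lymphatic growth factor that binds NRP2, had 125, 139 and 131 counts in OV3/SCR and 36, 31 and 36 in OV3/COX1KD, a log2 fold change of -1.90 (SE 0.15, edgeR FDR = 1.4e-09). PDGFB, a growth factor for pericytes and fibroblasts, had a log2 fold change of -1.32 (SE 0.061, edgeR FDR = 4.6e-13). Among 7 proteases that cut semaphorins, 2 were higher and 3 lower. The proprotein convertases FURIN, PCSK5 and PCSK7, enzymes of the family that processes class 3 precursors, had log2 fold changes of -0.68, -1.27 and -0.72, whereas PCSK6 had 0.81, each at an edgeR FDR of 3.7e-05 or smaller.

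Of 21 tested genes for plexin-binding GTPases, their regulators and downstream effectors 10 were higher and 3 lower, against 25.8% higher and 22.1% lower of all tested genes. PAK1 (0.69), FARP1 (0.58), LIMK2 (0.52) and TIAM1 (0.50) had the largest log2 fold changes among those called. PAK1 and LIMK2 are kinases that act on actin turnover, and FARP1 and TIAM1 are exchange factors for Rac. PAK1 went from 220.02 ± 4.63 to 355 ± 2.44 CPM (SD, n = 3 each, edgeR FDR = 1.1e-13). Of 14 tested cytoplasmic transducers 0 were higher and 6 lower by edgeR, against the same shares of all tested genes. At an unadjusted p under 0.05 without a call there were 3 with positive log2 fold changes (FYN at 0.13, RANBP9 at 0.13 and PIP5K1C at 0.14) and 1 with a negative value (FES at -1.42), named here after their values were seen. FES was scarce, with 12, 12 and 15 counts in OV3/SCR and 7, 1 and 6 in OV3/COX1KD. MICAL1, an oxidase that takes actin filaments apart below A plexins, fell most of the transducers whose mean log2 CPM reached 1, from 19.3 ± 1.31 to 6.54 ± 0.396 CPM (SD, n = 3 each), a log2 fold change of -1.56 (SE 0.080, edgeR FDR = 2.5e-12). Below that abundance DPYSL3 was called lower, with a log2 fold change of -2.69 (SE 0.40, edgeR FDR = 9.3e-06). It had 46, 22 and 33 counts in OV3/SCR and 8, 2 and 5 in OV3/COX1KD. DPYSL2, the collapsin response mediator, had a log2 fold change of -0.78 (edgeR FDR = 4.9e-09), MICAL2 one of -0.63 (edgeR FDR = 8.0e-09) and CDK5 one of -0.30 (edgeR FDR = 0.00164).

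**Figure D5:**
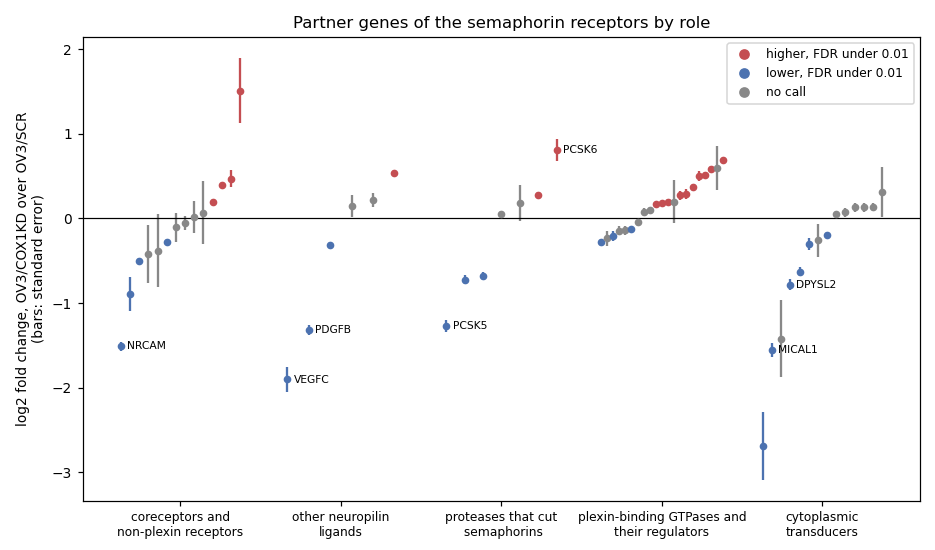
Log2 fold change of the 62 tested partner genes, OV3/COX1KD over OV3/SCR, with standard errors, grouped by role and sorted within each group, coloured by the edgeR call at an FDR under 0.01. Among the GTPases and regulators, a group that includes downstream effectors, 10 of 21 are called higher and 3 lower. Among the cytoplasmic transducers 0 of 14 are called higher and 6 lower. Over all tested genes 25.8% are called higher and 22.1% lower.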

How the data were processed

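RNA-seq libraries of 3 OV3/SCR and 3 OV3/COX1KD cell passages were made with a TruSeq kit that does not mark strand. Alignment by the authors was to hg19, with TopHat2 (version 2.0 in the submitters' processing notes), HTSeq counted reads per gene, and the deposited values are raw read counts per gene, without normalization. The annotation used for counting is not given in the sources used here.

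From the counts, genes were filtered with filterByExpr, scaled by TMM and tested with the quasi-likelihood test of edgeR (version 4.0.16, R version 4.3.3), with condition as the only term and Benjamini-Hochberg adjustment over 17309 genes. A call was an FDR under 0.01, and a fold change of 2.5 was a second threshold. The floor was 3 counts. Coordinates and exon lengths came from the GENCODE annotation on GRCh37, in which 33556 of the 34811 genes and all 31 members had an entry, and promoter sequences from the RefSeq table. All members were named. In each role group of the partner list, the rule named at most 4 genes, those called with the largest log2 fold changes whose mean log2 CPM reached 1. FYN, RANBP9, PIP5K1C, FES and DPYSL3 were named outside that rule after their values were seen, and were not followed through the alternatives. The members and lists were chosen with earlier results of these data known, so counts over them are no independent evidence. Data were simulated over 17309 genes, each with the common dispersion of 0.00103. The test recovered 83 of 90 genes given a log2 change of 1.5 and 69 of 110 given one of 0.5, with 0 unchanged genes called. No other gene was changed, whereas 47.9% of tested genes had a call in the data. The simulation therefore cannot show how often genes with a wider spread are falsely called. Alternatives were DESeq2 (version 1.42.0), other scalings and filters, a replicate block, leaving out each library, and the longest transcript as length.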

Additional observations from a re-analysis of the deposited data

How the results depend on the processing

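The alternatives were followed for 48 genes, namely the tested members, PTGS1 and the partner genes named by the rule. Over 12 alternatives for each, 538 of 576 values kept their direction and side of the FDR threshold, and 39 genes did so in all of them. Members called higher numbered 9 to 12 (11 in the main test) and members called lower 8 in every alternative. Members beyond a fold change of 2.5 numbered 2 to 3, partner genes called higher 15 to 22, and partner genes called lower 17 to 23. The sign turned only in genes without a call, whose main log2 fold changes were at most 0.063 in size, and the cause was not tested. With total count scaling SEMA3A was at -0.023, PLXNA1 at -0.041, PLXNB2 at -0.078 and PLXNB3 at -0.075. With RLE size factors PLXNB2 was at -0.0045 and PLXNB3 at -0.0017, with DESeq2 at -0.0045 and -6.5e-04, and with at least 10 counts in every library at -0.017 and -0.014. Leaving out 1 library gave ranges of -0.0058 to 0.13 for SEMA3A, -0.11 to 0.0010 for NRP1, -0.026 to 0.039 for PLXNB2 and -0.060 to 0.090 for PLXNB3. The call of SEMA4C was lost in 10 alternatives, with an edgeR FDR of 0.294 under total count scaling, and it was kept without the filter and without OV3/COX1KD replicate 2. CDK5 lost its call without OV3/SCR replicate 1 (edgeR FDR = 0.0120) or replicate 3 (edgeR FDR = 0.0111). SEMA6C gained a call without the filter. The labels speak of replicate pairs without saying what a number shares, and same-numbered samples deviated together with correlations of -0.0032, 0.045 and 0.026, so the numbers were not taken as pairs. With the replicate block 8233 genes were called, PLXNB2 was at -6.3e-04, the edgeR FDR of SEMA4C was 0.0111 and that of SEMA6C 0.00448. The 4 members below the filter were too scarce for the main fit, and the part of depth in this was not tested. Dividing by the longest transcript in place of the union of exons raised levels per kb by 1.01 to 2.49 times, 2 members moved by more than 3 ranks, and SEMA3C was no longer the highest ligand in OV3/SCR nor SEMA6D above NRP2 in OV3/COX1KD.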
